A study of Mus musculus with 3 samples.

Results

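The level of 9 plasma membrane amino acid transporter genes was measured in the RNA of cultured mouse T-helper 1 (Th1) cells. The 9 genes, Slc7a5, Slc3a2, Slc1a5, Slc1a4, Slc7a1, Slc7a6, Slc7a11, Slc38a1 and Slc38a2, were taken by gene symbol from the 50600 genes counted in each library, and all 9 were found. The cells were primary Th1 cells of C57BL/6NJ mice, and 3 libraries formed 1 group with no untreated or alternative condition. The labels point to a differentiation protocol for CD4+ T cells but name no agent, allele, genotype or time, and give the age as unknown; the file headers also carry 24 hr. The labels number the libraries as biological replicates 1, 2 and 3 and give 1 donor entry for all of them. Whether they came from separate animals or cultures is not stated, so a p-value between libraries reflects no more than how these samples scatter, part of which may be technical.

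Activated T cells grow and divide quickly, and for this they import amino acids through transporters of the solute carrier (SLC) families. Slc3a2 encodes the heavy chain CD98, a glycoprotein that carries partner light chains to the cell surface. Its partners include LAT1 (Slc7a5), which brings in leucine and other large neutral amino acids in exchange for intracellular glutamine, y+LAT2 (Slc7a6), which exchanges cationic for neutral amino acids, and xCT (Slc7a11), which imports cystine in exchange for glutamate. The other genes encode proteins that work without a heavy chain: the glutamine exchanger ASCT2 (Slc1a5), the alanine and serine exchanger ASCT1 (Slc1a4), the arginine and lysine carrier CAT1 (Slc7a1), and the sodium-coupled neutral amino acid carriers SNAT1 (Slc38a1) and SNAT2 (Slc38a2). Leucine and arginine inside the cell are sensed by mTORC1, a kinase complex that drives growth, and shortage of amino acids raises the transcription factor ATF4, whose known targets include several of these transporter genes.

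Promoter sequences from RefSeq (build GRCm38.p6) were matched by symbol for 6 of the 9 genes: Slc3a2, Slc1a4, Slc7a1, Slc7a6, Slc7a11 and Slc38a2. Each window of 300 bases, from 250 before the start to 50 after it, was searched on both strands for the C/EBP-ATF response element TGATGNAA, the element through which ATF4 acts with C/EBP partners. The element occurred in 2 of the 6 genes, Slc7a11 and Slc1a4, and their promoters are shown because they hold it. These 2 genes also had the lowest levels of the 9 in these libraries. Slc1a5, Slc7a5 and Slc38a1, which were among the 4 highest, had no matched window and were not searched. A link between the element and the level was not tested. Of 32851 promoter windows of the same length, 3.97% held the element at least once and 0.0700% held it at least 2 times. Each line runs 5′ to 3′ on the gene's strand from 150 bases before the start to 4 bases after it, with the element in capitals, at chr3:50443610-50443763 (minus strand) for Slc7a11 and chr11:20332710-20332863 (minus strand) for Slc1a4.
Slc7a11: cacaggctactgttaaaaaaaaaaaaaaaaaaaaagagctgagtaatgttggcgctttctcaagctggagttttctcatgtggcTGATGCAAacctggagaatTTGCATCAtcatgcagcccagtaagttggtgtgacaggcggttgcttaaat
Slc1a4: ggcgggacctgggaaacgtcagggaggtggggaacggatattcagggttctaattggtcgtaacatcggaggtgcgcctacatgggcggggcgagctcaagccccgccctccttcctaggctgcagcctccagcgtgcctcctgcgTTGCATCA

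Slc7a11 held 2 copies, TGATGCAA beginning at position -66 and its reverse complement TTGCATCA at -47, facing each other and not overlapping. Slc1a4 held 1 copy, TTGCATCA, which began at -4 and ran across the start site. The E-box CACGTG, the site of Myc and related factors, was in none of the matched windows and in 7.15% of all promoters. The AP-1 site TGACTCA was found once, in Slc7a1 at -123, and in 5.20% of all promoters. The core of the antioxidant response element, TGACNNNGC, was found in Slc7a1, Slc7a6 and Slc38a2 and in 12.4% of all promoters. The start of Slc3a2 in that table lay 9472 bases inside the counted gene, so its window is not the outermost promoter. These matches describe letters in a window, and binding was not measured.

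Read pairs assigned to genes numbered 3553547, 2945353 and 3369468 in replicates 1, 2 and 3. Any 2 libraries differed by more than counting error, with a chi-square per degree of freedom over genes of 4.14 to 15.1, so none was a copy of another. The counting used a strand option, and the labels do not state whether the library kit keeps strand. Where option and library differ, a gene's count can be only a residue of its own mRNA, and this cannot be told apart from a low level. Genes were therefore placed in 4 classes: overlapped (exons of genes on both strands cover the same bases), spanned (the gene's span, but no exon, meets a gene on the other strand), near (at most 5000 bases from a gene on the other strand) and isolated. Overlapped genes held 71.9% ± 4.97 (SD, n = 3) of all counts. None of the 9 transporter genes was overlapped, and none therefore had an opposite-strand exon partner whose counts could be set beside its own. All 9 T cell markers were detected, and Cd4 had 979, 506 and 880 counts. Of 7 Th1 markers 3 were detected: Il12rb2, an overlapped gene, had 90, 105 and 114 counts, Stat4 had 52, 23 and 33, and Tbx21, the transcription factor of the lineage, had 15, 11 and 8. The interferon gene Ifng was not detected, with 2, 2 and 1 counts. Of the 3 B cell markers 1 was detected, Cd79a with 19, 18 and 22 counts, while Ms4a1 had 0 in every library. Of the 4 macrophage markers 1 was detected, the overlapped gene Csf1r with 1429, 1418 and 1460 counts, while Adgre1 had 0, 1 and 1 and Lyz2 and Itgam had 0. The natural killer genes Ncr1 and Klrb1c had 0 counts in every library. The part of such other cells in the levels below was not tested.

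The 9 genes together covered a wide span of levels, with Slc1a5, Slc3a2 and Slc7a5 at the top, Slc38a1, Slc38a2, Slc7a1 and Slc7a6 in the middle, and Slc1a4 and Slc7a11 far lower. Levels are given in TPM, transcripts per 1000000 computed from counts and the deposited exon length, which allows genes of different length to be compared. Detection, set at 1 TPM or more in every library, was met by 7 of the 9 genes, where 41.2% of 21764 protein-coding genes met it. Among protein-coding genes without overlapped exons, as these 9 are, 5885 of 16963 met it. The 9 genes summed to 250.1, 134.8 and 201.8 TPM in replicates 1, 2 and 3. Their counts summed to 2396, 1187 and 1915, which were 0.0674%, 0.0403% and 0.0568% of each library. In such bulk RNA, fewer cells of a type and less RNA per cell cannot be told apart.

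**Figure D1:**
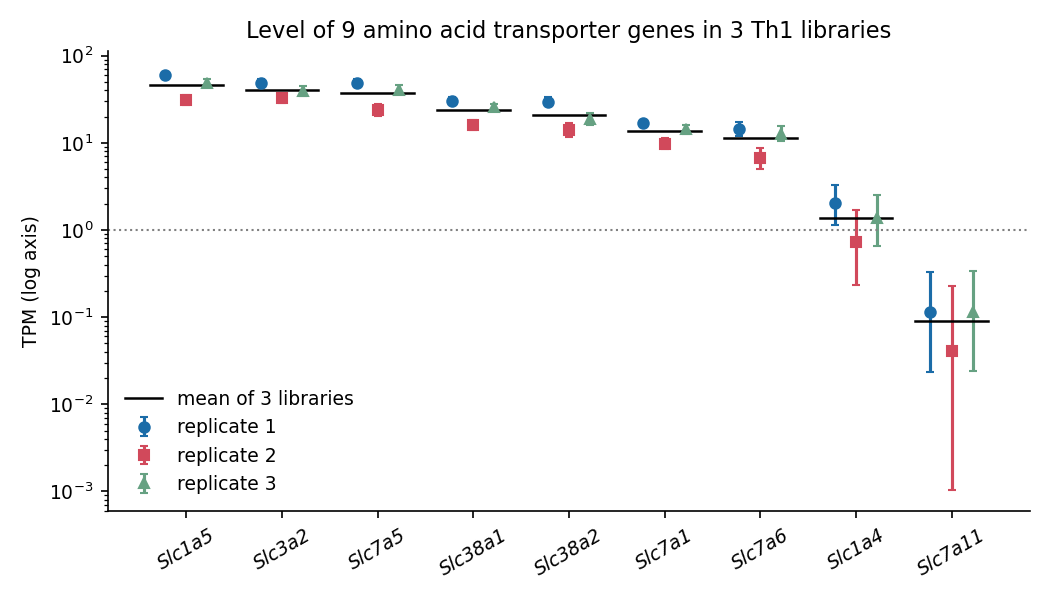
Level of each of the 9 transporter genes in TPM (log axis) in replicates 1, 2 and 3, with bars for the exact 95% Poisson interval of the count, a line for the mean of 3 libraries and a dotted line at 1 TPM. Slc1a5, Slc3a2 and Slc7a5 lie highest, Slc7a11 lies lowest, and replicate 2 is the lowest library for every gene.

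The heavy chain gene Slc3a2 (ENSMUSG00000010095.13, chr19:8706882-8723369, minus strand, mm10) had 325, 201 and 259 counts in replicates 1, 2 and 3. These counts gave 48.5, 32.6 and 39.3 TPM, a mean of 40.1 ± 7.97 (SD, n = 3), above 92.9% of protein-coding genes. Replicate 1 was the highest and replicate 2 the lowest, and this gene had the smallest relative spread of the 9, with a coefficient of variation of 19.9%. Its start lies 106 bases from that of Snhg1, a noncoding host gene of small nucleolar RNAs on the opposite strand, which had 224, 81 and 183 counts. No exon bases are shared between them.

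Slc7a5 (ENSMUSG00000040010.10, chr8:121881150-121907694, minus strand), the light chain gene for large neutral amino acids, had 342, 155 and 282 counts. Its level was 48.5, 23.9 and 40.7 TPM, a mean of 37.7 ± 12.6 (SD, n = 3), so that replicate 2 lay well below the other 2 libraries. The gene lies inside the span of Gm20388, an opposite-strand gene model with 0 counts in every library, and 139 bases from BC048644, which had 0, 1 and 3 counts. Slc7a6 (ENSMUSG00000031904.5, chr8:106168857-106198706, plus strand), the light chain gene of system y+L, had 125, 53 and 109 counts and 14.4, 6.63 and 12.8 TPM. Its mean was 11.3 ± 4.09 TPM (SD, n = 3), and replicate 2 was again the lowest. The opposite-strand neighbour Slc7a6os, 2011 bases away, had 124, 106 and 125 counts and so did not share the low value in replicate 2.

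Slc7a11 (ENSMUSG00000027737.10, chr3:49892526-50443614, minus strand), the cystine and glutamate exchanger gene, had 3, 1 and 3 counts. The limit that a count of 0 allows, 3 counts, is 0.113, 0.123 and 0.115 TPM for this gene in replicates 1, 2 and 3, so its 0.113, 0.0411 and 0.115 TPM lay at or under that limit in every library. At this depth such a level is poorly measured, with exact 95% Poisson intervals of 0.0234 to 0.331, 0.00104 to 0.229 and 0.0238 to 0.337 TPM. The opposite-strand gene models within its span, Gm37854 and the pseudogenes Gm37826 and Gm2345, had 0 counts in every library.

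Because each light chain pairs with CD98, its level was also taken as a ratio to that of Slc3a2 within each library, which cancels depth. The ratio of Slc7a5 to Slc3a2 in TPM was 1.00 (0.858 to 1.17), 0.734 (0.591 to 0.910) and 1.04 (0.872 to 1.23) in replicates 1, 2 and 3, with exact binomial 95% intervals that cover counting error only. The interval held a ratio of 1 in replicates 1 and 3 and lay under it in replicate 2. On the log2 scale the mean ratio was -0.13 ± 0.27 (SD, n = 3), smaller in size than the spread between libraries. With the length of the longest coding transcript it was -0.38, larger in size than that spread, so how far the 2 levels stand apart depends on the length used. The ratio of Slc7a6 to Slc3a2 was 0.297 (0.240 to 0.366), 0.204 (0.148 to 0.277) and 0.325 (0.257 to 0.408), a log2 mean of -1.89 ± 0.36 (SD, n = 3). All 3 intervals lay below those of Slc7a5. The ratio of Slc7a11 to Slc3a2 was 0.00234, 0.00126 and 0.00294 and rests on 1 to 3 counts. Summed, the 3 light chain genes stood at 1.30, 0.939 and 1.36 times the level of Slc3a2. An exact sign-flip test over 3 libraries cannot go below a two-sided p of 0.25, so no test was run on ratios or on the order of levels.

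**Figure D2:**
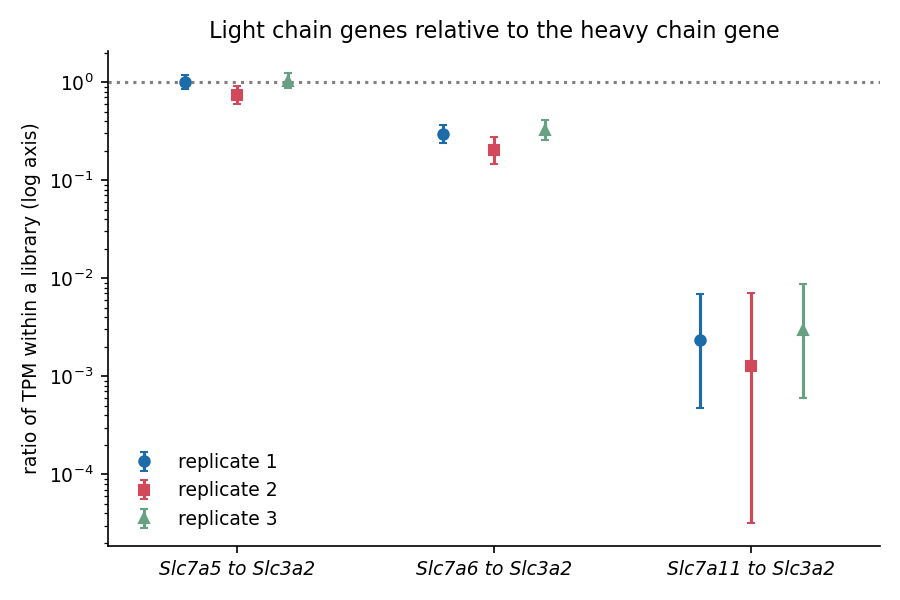
Ratio of the TPM of each light chain gene to that of the heavy chain gene Slc3a2 within a library (log axis), with exact binomial 95% intervals and a dotted line at a ratio of 1. Slc7a5 lies near 1 in replicates 1 and 3 and at 0.734 in replicate 2, Slc7a6 between 0.204 and 0.325, and Slc7a11 below 0.003.

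Among the transporters without a heavy chain, the pair of system ASC genes stood furthest apart. Slc1a5 (ENSMUSG00000001918.17, chr7:16781340-16798274, plus strand), the gene of the main glutamine exchanger, had 474, 227 and 381 counts, which is 59.8, 31.1 and 48.9 TPM. Its mean of 46.6 ± 14.5 TPM (SD, n = 3) was the highest of the 9 and lay above 93.8% of protein-coding genes and 97.3% of isolated protein-coding genes. Its paralog Slc1a4 (ENSMUSG00000020142.12, chr11:20302180-20332713, minus strand) had 15, 5 and 10 counts, and 2.01, 0.728 and 1.36 TPM, a mean of 1.37 ± 0.641 (SD, n = 3). It passed 1 TPM in replicates 1 and 3 only, and its exact 95% Poisson interval held 1 TPM in replicates 2 (0.237 to 1.70) and 3 (0.654 to 2.51) but not in replicate 1 (1.13 to 3.32). The ratio of Slc1a5 to Slc1a4 was 29.7 (17.8 to 53.5), 42.7 (18.0 to 133) and 35.8 (19.3 to 75.4), so the ranges of the 2 genes did not overlap.

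The system A genes Slc38a1 and Slc38a2 are neighbours on chromosome 15, on the same strand and 44480 bases apart. Slc38a1 (ENSMUSG00000023169.14, chr15:96571418-96642913) had 486, 234 and 399 counts and 30.5, 15.9 and 25.4 TPM, a mean of 24.0 ± 7.37 (SD, n = 3). Slc38a2 (ENSMUSG00000022462.6, chr15:96687394-96699698) had 261, 114 and 164 counts and 29.7, 14.1 and 19.0 TPM, a mean of 20.9 ± 7.97 (SD, n = 3). Both were highest in replicate 1 and lowest in replicate 2, but replicate 3 lay nearer to replicate 1 for Slc38a1 and nearer to replicate 2 for Slc38a2. Their ratio was 1.03 (0.881 to 1.198), 1.13 (0.901 to 1.43) and 1.34 (1.12 to 1.62), and the interval excluded 1 in replicate 3 alone. An opposite-strand gene model 475 bases from Slc38a2, Gm38144, had 0, 1 and 1 counts.

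Slc7a1 (ENSMUSG00000041313.14, chr5:148327410-148399904, minus strand), the arginine carrier gene, had 365, 197 and 308 counts. Its exons cover 11530 bases, so these counts correspond to only 16.7, 9.77 and 14.3 TPM, a mean of 13.6 ± 3.50 (SD, n = 3). Its ratio to Slc7a6, whose protein also carries cationic amino acids, was 1.16 (0.942 to 1.43), 1.47 (1.08 to 2.03) and 1.12 (0.897 to 1.41), and the interval excluded 1 in replicate 2 alone.

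By transport system, the shares of the summed TPM of the 9 genes were steadier between libraries than the levels. System ASC took 23.6% to 24.9% over the libraries, system A 22.0% to 24.1%, the heavy chain 19.4% to 24.2% and system L (Slc7a5) 17.7% to 20.2%. System y+ (Slc7a1) took 6.66% to 7.25%, system y+L (Slc7a6) 4.92% to 6.33% and the cystine exchanger 0.0305% to 0.0571%. The heavy chain and system y+ had their largest share in replicate 2, and for the heavy chain it was 24.2% there against 19.4% and 19.5% in replicates 1 and 3.

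In order of mean TPM the genes ran Slc1a5, Slc3a2, Slc7a5, Slc38a1, Slc38a2, Slc7a1, Slc7a6, Slc1a4 and Slc7a11. Neighbours in this order had overlapping ranges over libraries, except that Slc7a6 stood 8.24-fold above Slc1a4 and that Slc1a4 and Slc7a11 did not overlap either. The ratio of Slc1a4 to Slc7a11 was 17.7 (5.02 to 95.5), 17.7 (1.98 to 838.6) and 11.8 (3.04 to 66.8) and rests on 1 to 3 counts of Slc7a11. The top position was held by Slc1a5 in replicates 1 and 3 and by Slc3a2 in replicate 2, and the positions from Slc38a1 down were the same in every library. The size of the levels depends on what they are scaled to. When TPM was computed over genes with no overlapped exons, Slc1a5 stood at 232 TPM, Slc3a2 at 203 and Slc7a5 at 187, and the order of the 9 was unchanged. With the length of the longest coding transcript in place of the exon length, Slc1a5 stood at 70.3 ± 21.8 TPM and Slc7a1 at 21.8 ± 5.62 (SD, n = 3). Slc7a1 then came just above Slc38a2, which stood at 20.8 ± 7.92 (SD, n = 3).

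Much of the annotated exon sequence of these genes is not coding. In the GENCODE M21 annotation the coding part of the exons ranged from 8.55% in Slc38a1 to 48.0% in Slc3a2. That annotation gives Slc38a1 17236 exon bases and Slc38a2 8838, where the deposited models have 8391 and 4626. For these genes the coding share is therefore not that of the counted exons. Read pairs can be lost or misplaced from stretches of 50 bases that M21 transcripts share with those of other genes. Such stretches were 0 in Slc7a5, Slc1a5, Slc1a4, Slc7a6 and Slc38a2. They made up 3.51% in Slc3a2, 0.147% in Slc7a1, 1.47% in Slc7a11 and 4.23% in Slc38a1, where most of them are shared with 4632432E15Rik.

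Whether a gene differed between libraries by more than counting error was tested with a chi-square test of its 3 counts at edgeR TMM library sizes, adjusted by the Benjamini-Hochberg method over 10216 tested genes. The test compares these libraries, not conditions. Slc1a4 and Slc7a11 had too few counts to enter it. Of the 7 transporter genes tested, 4 passed the threshold of 0.05: Slc38a2, Slc7a5, Slc1a5 and Slc38a1. Over all tested genes 35.6% passed, and over those without overlapped exons 22.7%.

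Slc38a2 varied most clearly, with 73.4, 38.7 and 48.7 CPM (counts per 1000000 of all counts) in replicates 1, 2 and 3. Its chi-square adjusted p was 0.000761 at edgeR TMM sizes. Slc7a5 had 96.2, 52.6 and 83.7 CPM (adjusted p = 0.00775). Slc1a5 had 133.4, 77.1 and 113.1 CPM (adjusted p = 0.00798), and Slc38a1 had 136.8, 79.4 and 118.4 (adjusted p = 0.00843). In all 4 genes replicate 1 was the highest and replicate 2 the lowest. In CPM on total counts, replicate 1 exceeded replicate 2 by 1.90-fold in Slc38a2, 1.83-fold in Slc7a5, 1.73-fold in Slc1a5 and 1.72-fold in Slc38a1. The test used TMM sizes, at which these differences were smaller. At these sizes Slc38a2 had 65.8, 45.2 and 46.5 scaled CPM in replicates 1, 2 and 3, and Slc7a5 had 86.2, 61.5 and 79.9. Slc1a5 had 119.5, 90.1 and 108.0, and Slc38a1 had 122.6, 92.8 and 113.1. Slc7a6 moved as far, 1.95-fold, but on fewer counts and did not pass (adjusted p = 0.0805). Slc7a1 (adjusted p = 0.300) and Slc3a2 (adjusted p = 0.538) did not pass either. Their ratios of replicate 1 to replicate 2 on total counts were 1.54 and 1.34. At TMM sizes Slc3a2 had 82.0, 79.8 and 73.4 scaled CPM, so that replicate 3 was its lowest.

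The low values in replicate 2 were not particular to the transporters. Replicate 2 had the lowest CPM for all 7 tested transporter genes, for 64.1% of all tested genes and for 81.9% of tested genes without overlapped exons. The median gene of the isolated class lay 0.57 lower on the log2 CPM scale in replicate 2 than in the mean of replicates 1 and 3, that is at -0.57, and the near and spanned classes lay at -0.49 and -0.47. The overlapped class lay at 0.05. Against these values Slc3a2 stood at -0.30, Slc7a1 at -0.53, Slc38a2 at -0.63, Slc1a5 at -0.67, Slc38a1 at -0.68, Slc7a5 at -0.77 and Slc7a6 at -0.91. Relative to the median of their own class, Slc3a2 lay 0.19 higher and Slc7a1 0.03 higher, while the other 5 lay lower, by 0.10 for Slc1a5 and 0.42 for Slc7a6 at the ends.

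**Figure D3:**
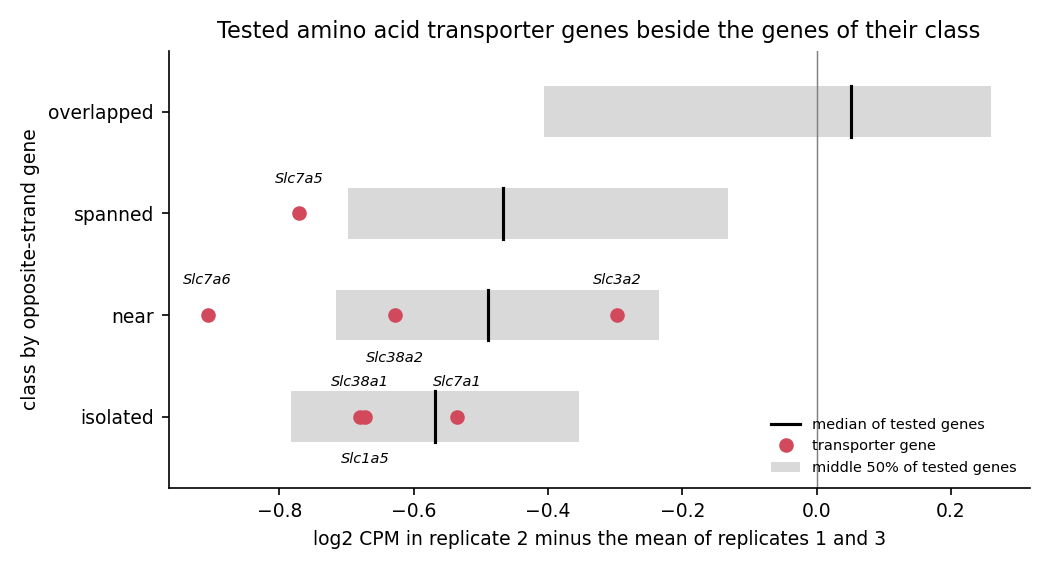
Difference in log2 CPM between replicate 2 and the mean of replicates 1 and 3 for the 7 tested transporter genes (points), beside the median (black line) and the middle 50% (grey box) of all tested genes of each class. The transporter genes lie between -0.91 and -0.30, and Slc7a5 and Slc7a6 lie to the left of the box of their class.

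When the libraries were scaled within each class, so that a shift common to the class is removed, 1 of the 7 genes passed, Slc38a2 (chi-square at edgeR TMM sizes within class, adjusted p = 0.0191). Of all tested genes 26.9% passed under this scaling, and of those without overlapped exons 15.2%. Slc38a2 then had 62.2, 48.5 and 45.9 scaled CPM, so replicate 1 lay above both other libraries and replicate 2 was no longer the lowest. Slc7a5 had 83.2, 64.7 and 78.8 (adjusted p = 0.0991), with replicate 2 still the lowest. Slc1a5 had 109.9, 100.1 and 105.6 (adjusted p = 0.668) and Slc38a1 had 112.7, 103.2 and 110.6 (adjusted p = 0.693), close to level over the libraries. Slc7a1 had 84.6, 86.9 and 85.4, the most even values of the 7 (adjusted p = 0.973). Slc3a2 had 77.5, 85.5 and 72.5 (adjusted p = 0.380), with replicate 2 now the highest, and Slc7a6 had 29.8, 22.5 and 30.5 (adjusted p = 0.311).

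**Figure D4:**
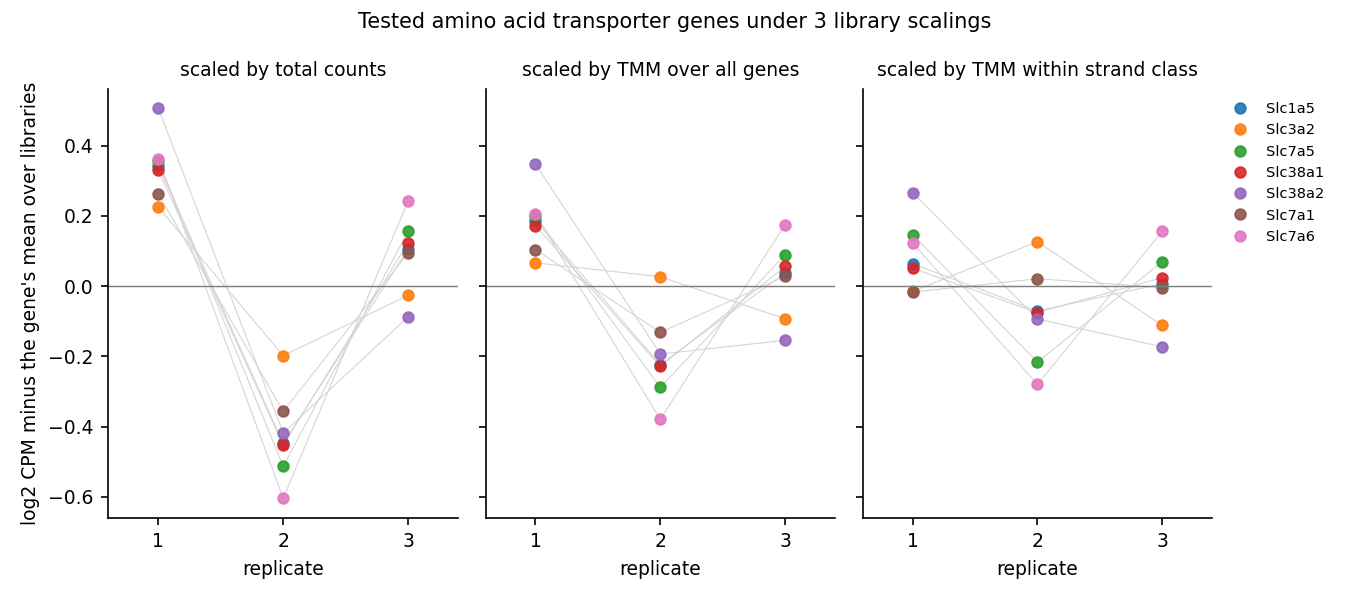
Log2 CPM of each tested transporter gene relative to its own mean over replicates 1, 2 and 3, under scaling by total counts, by TMM over all genes and by TMM within strand class. With the first scaling all 7 genes are lowest in replicate 2, and with the third the points span a narrower range, with Slc38a2 highest in replicate 1 and Slc3a2 highest in replicate 2.

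The calls also depended on single libraries. Without replicate 2 only Slc38a2 passed (adjusted p = 0.00941 by chi-square at edgeR TMM sizes), where 9.04% of all tested genes did, and it passed again with scaling within class (adjusted p = 0.0396), where 6.46% did. Without replicate 1 only Slc7a5 passed (adjusted p = 0.0315), where 24.4% of all tested genes did, and Slc38a2 did not (adjusted p = 0.884). Without replicate 3 the same 4 genes and Slc7a6 (adjusted p = 0.0413) passed, where 37.0% of all tested genes did. With total counts in place of TMM all 7 passed, and so did 51.7% of all tested genes. DESeq2 size factors gave 4 of the 7 and 34.7% of all tested genes. The test without a filter on low counts, which Slc1a4 and Slc7a11 also entered, gave 4 and 18.5% of 19021 genes.

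The other plasma membrane and lysosomal amino acid transporter genes mostly had few or no counts. Of 45 such genes 8 were detected and 23 had 0 counts in every library. Of the 32 without overlapped exons 2 were detected, against 7 of the 9 genes above, none of which is overlapped. Both lists were chosen with earlier results of these data known, so this difference is a description and not a test. The 3 highest of the 45 were overlapped genes, whose counts are uncertain because read pairs of a pair of genes are split by strand alone. Slc6a20b, of the proline carrier family, had 3579, 3872 and 3534 counts (234 ± 22.2 TPM, SD, n = 3) and shares 1800 exon bases with Sacm1l, which had 125, 46 and 104. Slc3a1, the other heavy chain gene of the family, had 220, 224 and 226 counts (52.7 ± 2.69 TPM, SD, n = 3) and shares 608 bases with Prepl, which had 65, 26 and 38. Slc6a6, the taurine carrier gene, had 349, 214 and 353 counts (19.5 ± 4.37 TPM, SD, n = 3) and shares 117 bases with Gm44981, which had 18, 28 and 24.

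Of 9 tested genes among those 45, 4 passed the chi-square test, where 35.6% of all tested genes did. In none of the 4 was replicate 2 the lowest. Of these tested genes, 3 had no overlapped exons. Slc6a20b, Slc3a1 and Slc7a7, which passed, are overlapped. In that class 53.0% of tested genes passed, and the median gene lay at 0.05 in replicate 2 against the mean of replicates 1 and 3 (log2 CPM). Slc43a1, an isolated gene for a carrier of branched-chain amino acids, had 44, 58 and 40 counts (adjusted p = 0.000494 at edgeR TMM sizes, 8.88e-06 within class), so it was highest in the library where the 9 genes were lowest. Slc7a7, which encodes another light chain of CD98, had 44, 55 and 47 counts (adjusted p = 0.00681, 0.324 within class) and shares 232 exon bases with Oxa1l.

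**Figure D5:**
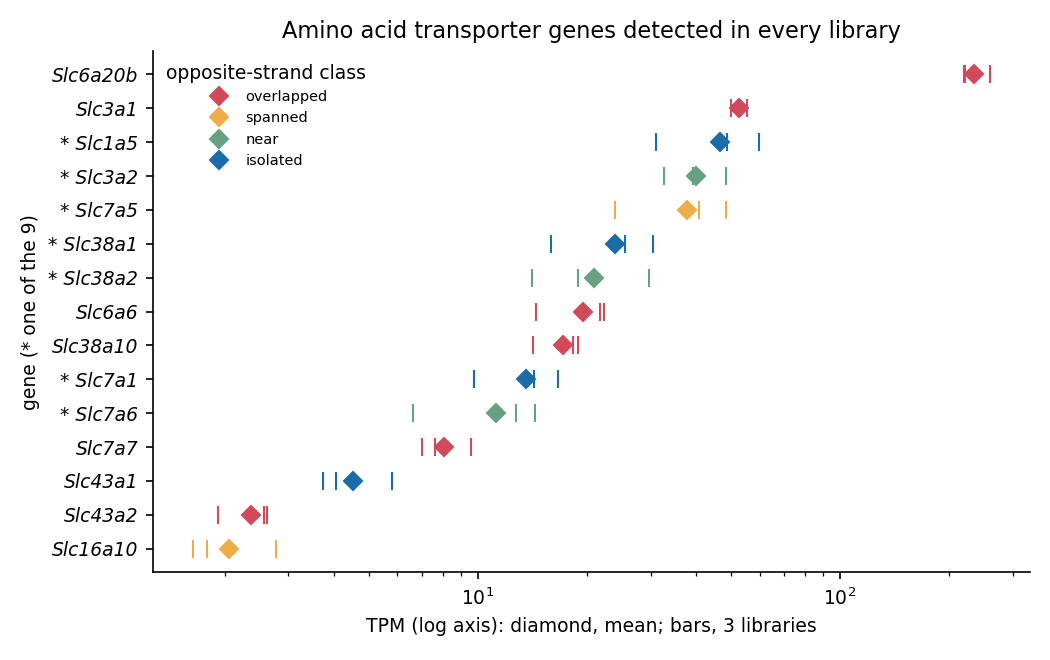
Mean TPM (diamond, log axis) and the 3 library values (bars) of every amino acid transporter gene detected in all libraries, coloured by opposite-strand class, with a star on the genes of the set of 9. The 7 starred genes lie between 11.3 and 46.6 TPM, and the 2 genes above them, Slc6a20b and Slc3a1, are overlapped.

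Genes of amino acid sensing, response and use, and of mitochondrial amino acid carriers, were largely detected. Over all protein-coding genes 41.2% were detected, the share to set beside each list below. Of 29 genes of amino acid sensing to mTORC1, 24 were detected, with a median of 4.89 ± 1.29 TPM (SD of the list's median, n = 3). Sec13, a subunit of the GATOR2 complex, had 339, 164 and 316 counts and 46.2 ± 14.6 TPM, and its partner Seh1l had 285, 139 and 236 counts and 33.7 ± 10.2 TPM (SD, n = 3). Nprl3, a GATOR1 subunit with overlapped exons, had 1197, 1140 and 1173 counts and 84.1 ± 1.78 TPM (SD, n = 3). In this list 6 of 24 tested genes passed the chi-square test and 4 passed with scaling within class. Over all tested genes 35.6% and 26.9% did. The largest ratios of highest to lowest CPM among those 6 were in Rheb, which encodes the activator of mTORC1 (83, 26 and 49 counts), and Depdc5 of GATOR1 (83, 26 and 66 counts). Neither passed with scaling within class (adjusted p = 0.0906 and 0.158 by chi-square at edgeR TMM sizes), nor did Nprl3 (adjusted p = 0.158) or Sec13 (adjusted p = 0.133).

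Of 12 genes of the ATF4 amino acid response, 8 were detected. Of the 7 without overlapped exons 3 were, where 5885 of 16963 such protein-coding genes were. Asns (17, 3 and 13 counts) and Trib3 (1, 2 and 2) were not detected, and Chac1 and Nupr1 had 0 counts in every library. Atf4 itself had 664, 358 and 557 counts and 164.8 ± 42.5 TPM (SD, n = 3), and it did not pass the chi-square test (adjusted p = 0.101 at edgeR TMM sizes). Ddit3 (565, 627 and 660 counts) and Atf5 (644, 569 and 639 counts) are overlapped and passed (adjusted p = 5.65e-20 and 3.44e-07), Ddit3 also within class (adjusted p = 0.000183) but not Atf5 (adjusted p = 0.775). Of 7 tested genes 2 passed, against 35.6% of all tested genes, and neither of the 2 was lowest in replicate 2.

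Of 15 genes of cystine and glutathione use, 10 were detected. Not detected, like Slc7a11, were Hmox1 (2, 3 and 4 counts), Nqo1 (1, 0 and 3), Cbs (3, 5 and 0), Srxn1 (1, 0 and 4) and Cth (1, 0 and 3). The thioredoxin gene Txn1 had 356, 169 and 324 counts (145.0 ± 46.4 TPM, SD, n = 3), the glutathione peroxidase gene Gpx1 had 248, 101 and 192 (67.3 ± 25.5), and the thioredoxin reductase gene Txnrd1 had 646, 366 and 480 (37.9 ± 9.32). Against 35.6% of all tested genes, 3 of 10 tested genes passed here, these same 3, and each was lowest in replicate 2. With scaling within class their adjusted p was 0.284, 0.082 and 0.0861 (chi-square at edgeR TMM sizes).

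Of 10 genes of glutamine and glutamate use, 8 were detected. The serine synthesis enzyme gene Psat1 had 392, 175 and 323 counts (37.5 ± 12.8 TPM, SD, n = 3), the transaminase genes Got1 and Got2 had means of 25.5 ± 4.75 and 25.4 ± 5.82 TPM, and Aldh18a1, for proline synthesis from glutamate, had 254, 98 and 187 counts. Against 35.6% of all tested genes, 3 of 8 tested genes passed here, Psat1 and Aldh18a1 among them. Psat1 and Aldh18a1 also passed within class (adjusted p = 0.0463 and 0.0267 by chi-square at edgeR TMM sizes).

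Of 12 genes of arginine and polyamine use, 10 were detected. The spermidine synthase gene Srm had 682, 362 and 560 counts (180.4 ± 47.8 TPM, SD, n = 3) and the ornithine decarboxylase gene Odc1 had 964, 479 and 849 (161.7 ± 48.0), both far above the arginine carrier gene Slc7a1. The antizyme gene Oaz1 had 268, 148 and 234 counts and 45.7 ± 11.4 TPM (SD, n = 3). Against 35.6% of all tested genes, 2 of 9 tested genes passed here, Odc1 and the antizyme inhibitor gene Azin1 (320, 135 and 231 counts). With scaling within class their adjusted p was 0.314 and 0.158 (chi-square at edgeR TMM sizes).

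All 6 genes of branched-chain amino acid use were detected. Bcat1, the cytosolic transaminase gene and an overlapped one, had 581, 424 and 454 counts (28.3 ± 3.90 TPM, SD, n = 3). Bckdk, for the kinase of the branched-chain dehydrogenase, had 103, 39 and 69 counts (10.2 ± 4.32), and Dbt, for a subunit of that enzyme, had 79, 32 and 58 (9.05 ± 3.48). Of 4 tested genes Bcat1 and Bckdk passed, against 35.6% of all tested genes. With scaling within class Bcat1 passed (adjusted p = 0.0177 by chi-square at edgeR TMM sizes) and Bckdk did not (adjusted p = 0.292). Of 9 mitochondrial amino acid carrier genes 8 were detected, all at low levels with a list median of 3.59 ± 1.36 TPM (SD, n = 3). Its highest members were Slc25a18 (18, 26 and 12 counts, overlapped), Slc25a38 (33, 13 and 24) and Slc25a22 (64, 35 and 53). Against 35.6% of all tested genes, 1 of 7 tested genes passed here, Slc25a18 (adjusted p = 0.00414 by chi-square at edgeR TMM sizes, 0.0914 within class).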

How the data were processed

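RNA was measured in 3 libraries of 1 group. The authors deposited raw counts, in which a read pair adds 1 to a gene. Per the file headers, featureCounts 1.4.6-p4 summed exons by gene (GENCODE M13 models, both ends aligned, strand option 1). The build is mm10, per the labels. The alignment's name carries star2, and the labels add nothing on the aligner. They call the assay total RNA sequencing but name a protocol for polyA RNA. Gene lengths are the deposited exon lengths. Symbols and biotypes came from GENCODE M21 by identifier (50376 matched, 224 did not). CPM and TPM were computed here. Variation was tested per gene by chi-square against Poisson error (2 degrees of freedom) over genes passing filterByExpr, with edgeR 4.0.16 TMM sizes (DESeq2 1.42.0 size factors as an alternative), and the script was tested on simulated data. Intervals are exact at 95% and, like the limit of 3 counts for a count of 0, cover counting error alone, because pairs that carry no molecular identifier can be copies of 1 molecule. The transporter genes and the gene lists were chosen with earlier results of these data known. From each pathway list, the 3 genes of highest mean TPM were named, with up to 2 of those passing the chi-square test, by the ratio of highest to lowest CPM. Genes not detected were also named in the ATF4 list and in the cystine and glutathione list. Marker genes of cell types were named after their values were seen.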

Additional observations from a re-analysis of the deposited data

How the results depend on the processing

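2 alternatives were added after seeing the data: the length of the longest coding transcript, and leaving out replicate 2 with scaling within class. The number of all genes that varied was 3641 and lay between 971 and 3795 when 1 replicate was left out, the lowest without replicate 2, and it was 694 without replicate 2 with scaling within class. The number of transporter genes that varied was 4. It was 7 with total counts, 1 with scaling within class, 1 to 5 when 1 replicate was left out and 1 without replicate 2 with scaling within class. The cause of these differences was not tested. DESeq2 size factors and no filter on low counts gave 4 each. Detected genes numbered 7 or 8 of 9 under every alternative. The log2 ratio of Slc7a5 to Slc3a2 was -0.13 and ran from -0.22 to 0.0268 when 1 replicate was left out, turning sign without replicate 2, and it was -0.38 with the length of the longest coding transcript. The log2 ratio of Slc7a11 to Slc3a2 was -8.93, and -5.22 on TPM + 1, where the added 1 exceeds the level of Slc7a11. No transporter gene shared exon bases with an opposite-strand gene at an overlap of 1 base or of 100. No paired analysis was possible because there is 1 group. At this depth Slc1a4 and Slc7a11 did not pass the filter on low counts of the main test. Without that filter every gene with a count was tested, Slc1a4 and Slc7a11 among them.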
